A study of Nematostella vectensis with 10 samples.

Results

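The genes described here were abundant in the body of the *Nematostella vectensis* planula and nearly absent from its apical tissue at both larval stages examined. They were chosen from the measured values. A gene was a member if its lowest level among the 5 body libraries was at least 16 times its highest level among the 5 apical libraries, and if its mean level over the body libraries was at least 10 CPM (read counts relative to the library total, given as counts per 1000000 after trimmed mean of M-values scaling, TMM). This rule gave 68 genes of 25729 gene models, of which 23333 had at least 15 counts in total. Of the genes left out of the rule by name, 4 also met both thresholds. They are the 4 markers of gland/secretory-cell type 4 given below (NVE23810, NVE26086, NVE9234 and NVE10584), so these are not independent of the rule. The same rule with the tissues exchanged, for genes at least 16 times higher in every apical library, gave 10 genes. Since the difference between the tissues chose the members, it is described below and not tested.

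The libraries came from planulae of the starlet sea anemone, cut by hand into an apical piece with the apical organ and the rest of the larva, called the body. Mid-planulae at 50 to 60 h post fertilisation gave 2 apical and 2 body libraries, and late planulae at 75 to 85 h gave 3 apical and 3 body libraries. Each library was a pool of tissue from many larvae of several batches, so no library stands for 1 animal, and nothing in the sources shows that the pools of a group were independent. The p-values below therefore measure the spread between these libraries only.

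In the *Nematostella* planula the apical organ lies at the aboral pole, the end that leads during swimming. It includes ectodermal cells with a tuft of long cilia and a ring of larval neurons around them. The mouth opens at the opposite pole and leads into the pharynx and the gastric cavity, which is lined by endoderm and from which the mesenteries grow. In sea anemones, gland cells that secrete digestive enzymes are found in the pharynx and the mesenteries, and so would remain with the body when the apical piece is cut away. The 68 genes carry NVE identifiers, which no table used here pairs with a gene name, a protein or a sequence, so each is given by its identifier and no role is assigned.

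The total counts per library ranged from 14364093 to 27730410 (median 20335940), and a level of 3 counts, taken as the smallest that a library can show, was 0.104 to 0.223 CPM in the apical libraries. All 9 markers of the apical ring and spot were higher in every apical library than in every body library. The 4 markers of gland/secretory-cell type 4, a cell type of the pharynx and mesenteries, summed to 1183 to 3340 CPM in the body libraries. They summed to 25.3 CPM in mid-planula apical replicate 1 and to 6.63 to 9.72 CPM in the other 4 apical libraries. Mid-planula apical replicate 1 also stood apart for the 68 genes, as given below, whereas its ring markers (1121 CPM) and spot markers (779 CPM) lay within the range of the other apical libraries. In bulk tissue, fewer cells of a type and less RNA per cell cannot be told apart.

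The 68 genes together reached 7365 and 7933 CPM in the mid-planula body libraries and 22199, 15259 and 19653 CPM in the late planula body libraries. In the apical tissue they summed to 202 and 22.9 CPM in the mid-planula and to 29.6, 30.3 and 32.5 CPM in the late planula. Every late planula body library was thus above both mid-planula body libraries, and mid-planula apical replicate 1 was 8.80 times as high as replicate 2. The group means were 7649 ± 401 CPM (SD, n = 2) in the mid-planula body and 19037 ± 3511 CPM (SD, n = 3) in the late planula body. The apical means were 112 ± 126 CPM (SD, n = 2) and 30.8 ± 1.51 CPM (SD, n = 3). The genes took 0.872% to 1.85% of all counts in the body libraries.

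**Figure D1:**
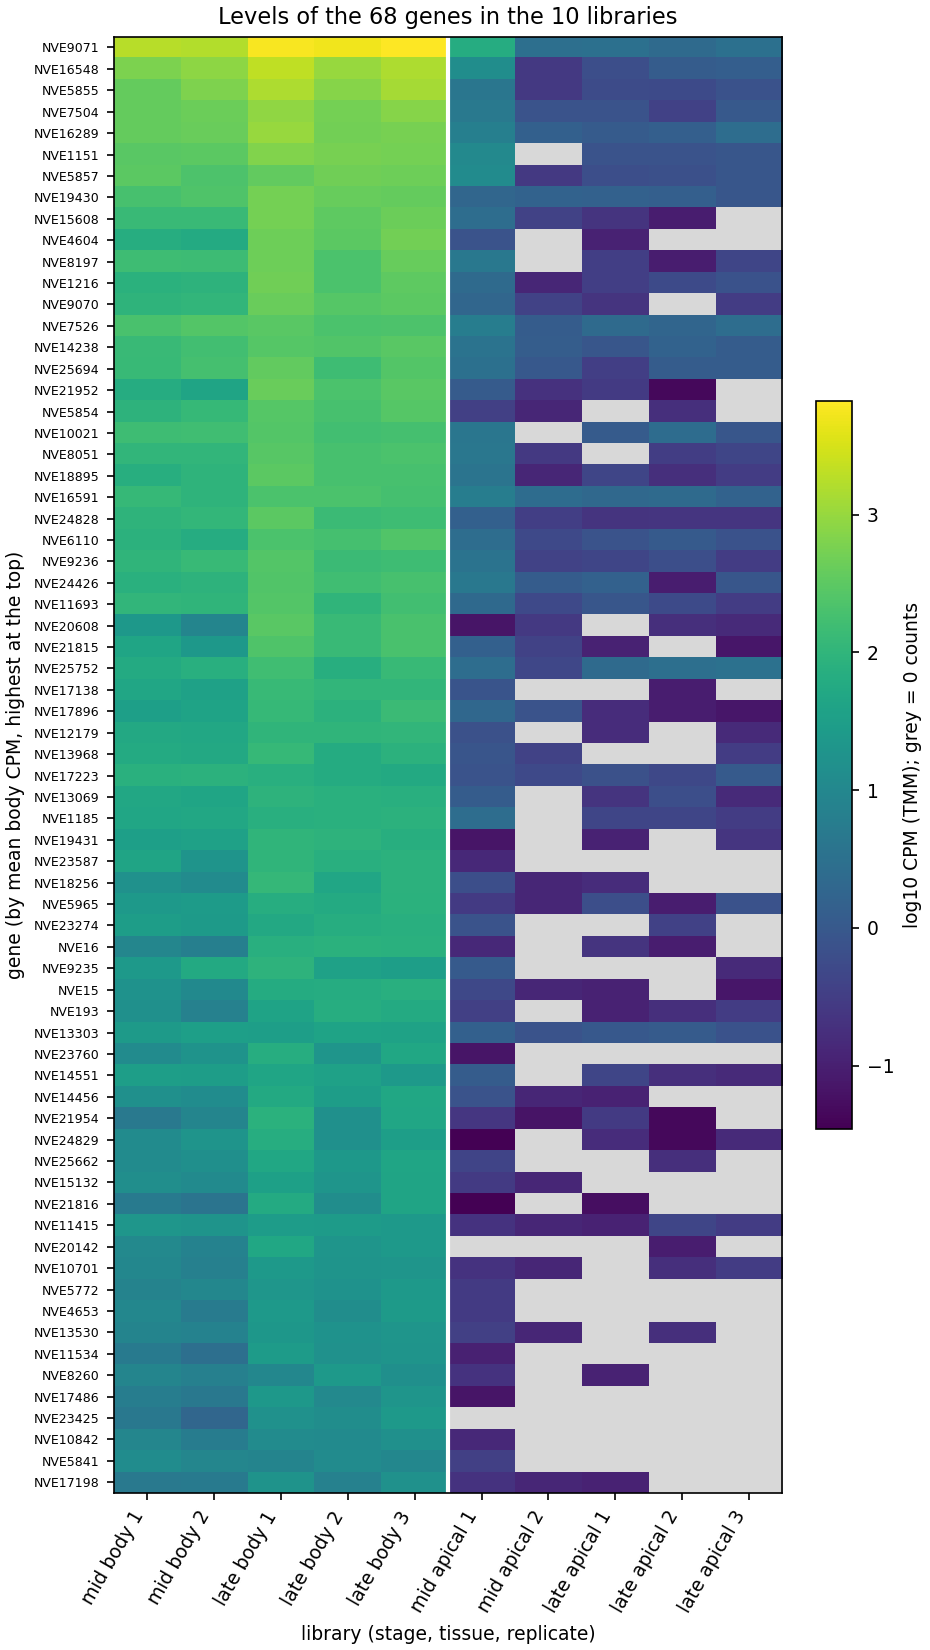
Levels of the 68 genes in the 10 libraries, as log10 of TMM-normalised CPM (colour; grey stands for 0 counts), with 1 gene per line ordered by its mean body level. The 5 body libraries are on the left and the 5 apical libraries on the right, where mid-planula apical replicate 1 has 2 genes at 0 counts and the other 4 have 21 to 28.

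The members spanned a wide range of abundance in the body. Their mean body levels ran from 10.3 to 4271 CPM with a median of 74.5 CPM, and 25 members had under 50 CPM, 26 had 50 to 200 CPM and 17 had at least 200 CPM. These values are not corrected for transcript length, so they give shares of the counts and do not rank the genes by transcript number. The 8 members with the highest mean body CPM supplied 58.5% to 62.1% of the summed CPM in each body library. NVE9071 alone supplied 21.1% to 34.6% in the body and 32.3% in mid-planula apical replicate 1.

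NVE9071 had 1785 and 1673 CPM in the mid-planula body and 5909, 5278 and 6710 CPM in the late planula body. Its apical levels were 65.2 and 2.996 CPM in the mid-planula and 3.08, 2.35 and 3.12 CPM in the late planula. The body libraries of the 2 stages did not overlap, and a single apical library held most of its apical counts. NVE16548 had 620 and 833 CPM in the mid-planula body and 2116, 1007 and 1527 CPM in the late planula body, against 13.3 and 0.261 CPM in mid-planula apical tissue and 0.661, 1.17 and 1.34 CPM in late planula apical tissue. NVE5855 had 380, 631, 1485, 737 and 1273 CPM in the body libraries in the same order, against 4.13 CPM in mid-planula apical replicate 1 and 0.261 to 0.742 CPM in the other apical libraries. For both genes the late planula body libraries all lay above the mid-planula ones, with replicate 1 the highest.

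NVE7504 (372 and 441 CPM in mid-planula body, 904, 526 and 748 CPM in late planula body) and NVE16289 (373 and 415 CPM, then 1017, 511 and 554 CPM) showed the same order of the stages. NVE1151 had 304 and 312 CPM in the mid-planula body and 665, 550 and 521 CPM in the late planula body, and was at 10.7 CPM in mid-planula apical replicate 1 and at 0 counts in replicate 2. NVE5857 had 313 and 223 CPM in the mid-planula body and 359, 480 and 465 CPM in the late planula body, with 12.6 CPM in mid-planula apical replicate 1. The remaining gene of the 8, NVE19430, differed from these in its apical values. It had 190, 237, 528, 390 and 386 CPM in the body libraries and 1.94, 1.56, 1.49, 1.35 and 0.891 CPM in the apical libraries, so that mid-planula apical replicate 1 was close to the others.

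With each apical library set to no less than 3 counts, the ratio of the body mean to the apical mean over the 68 members ran from 33.8-fold for NVE13303 to at least 956-fold for NVE4604, with a median of 147-fold. The floor sets the upper end of this order. Of the members, 8 had no more than 3 counts in any apical library, and were at least 74.2- to 404-fold higher in the body. The largest of these bounds was that of NVE19431, which had 32.9 and 37.6 CPM in the mid-planula body and 99.8, 91.9 and 70.3 CPM in the late planula body. NVE23587 had 42.2 and 19.0 CPM in the mid-planula body, 99.6, 76.3 and 85.8 CPM in the late planula body, 0.139 CPM (4 counts) in mid-planula apical replicate 1 and 0 counts in the 4 other apical libraries. NVE5854 had 89.1 to 274 CPM in the body libraries and at most 0.347 CPM in an apical library. NVE4604 had 59.4 to 514 CPM in the body, 0.764 CPM in mid-planula apical replicate 1, 0.110 CPM in late planula apical replicate 1 and 0 counts in the other 3 apical libraries. NVE23425 was the only member with 0 counts in all 5 apical libraries, which allows up to 0.104 to 0.223 CPM in each, by counting error alone.

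The members nearest to the fold threshold were NVE21815 (16.3 times), NVE16591 (16.4 times) and NVE14456 (16.6 times), and the nearest genes outside it were NVE23680 (15.4 times), NVE20630 (15.2 times) and NVE1213 (15.2 times). At the threshold on the body mean, NVE17198 (10.3 CPM), NVE5841 (10.5 CPM) and NVE10842 (10.8 CPM) lay just inside, and NVE23588 (9.94 CPM), NVE26049 (9.64 CPM) and NVE7440 (9.45 CPM) just outside. The apical value that set the ratio came from mid-planula apical replicate 1 for 55 members, and from another library for 12. Without that library the same rule gave 104 genes, and all 68 were among them.

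What remained of these transcripts in the apical tissue was small. Outside 1 library many members were at or near the smallest level that could be seen, and others were well above it. NVE9071, for example, had 46 counts in mid-planula apical replicate 2 and 56, 52 and 42 counts in the late planula apical libraries. Relative to the mean body level of the same stage, the 68 genes had a median of 2.52% in mid-planula apical replicate 1 and of 0.165% in replicate 2. In the 3 late planula apical libraries the medians were 0.127%, 0.0793% and 0.109%. Over all genes with a mean body level of at least 10 CPM, the same medians were 97.1% to 101.2% in the 5 apical libraries. In mid-planula apical replicate 1, 59 members had more than 3 counts, 56 exceeded 1% of their body level and the highest, NVE1185, reached 5.52%. In the other apical libraries 26 to 34 members had more than 3 counts, and 17 members had more than 3 counts in every apical library. Of the 4 gland/secretory-cell type 4 markers, 3 were also highest in mid-planula apical replicate 1, whereas NVE10584 was at 0.312 CPM there and at 0.456 to 1.31 CPM in the other 4 apical libraries. The part of body tissue in these apical values was not tested.

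**Figure D2:**
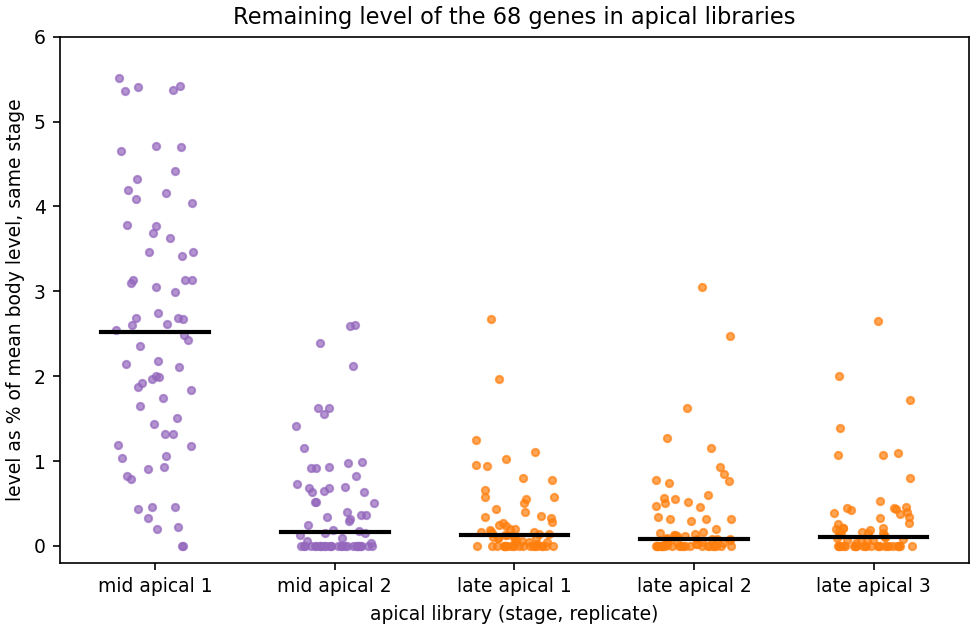
Level of each of the 68 genes in each apical library, as a percentage of its mean level in the body libraries of the same stage (points), with the median over the 68 genes (lines). The median is 2.52% in mid-planula apical replicate 1 and 0.0793% to 0.165% in the other 4 libraries.

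In the late planula apical libraries, which did not include that library, a few members kept a larger share than most. In 42 members the mean late planula apical level was under 0.2% of the late planula body level, and in 25 members none of the 3 libraries had more than 3 counts. Only 4 members exceeded 1%, and they are named here after their values were seen. The shares had no gap at 1%, since NVE16591 (0.990%) and NVE7526 (0.925%) came next. NVE13303 was at 2.68%, 3.05% and 2.004% of its late planula body level in the 3 apical libraries. NVE25752 was at 1.96%, 2.47% and 2.64%, in the same order. NVE17223 was at 1.10%, 0.765% and 1.71%, and NVE11415 at 0.398%, 1.63% and 1.07%. In NVE13303 and NVE25752 no late planula apical library fell below 1.96%, whereas in NVE17223 and NVE11415 at least 1 library was below 1%. NVE25752 had 2.37, 2.98 and 3.19 CPM in these libraries, beside 2.67 CPM in mid-planula apical replicate 1, so that 2 of the 3 were above that library and 1 was below it. The median over all 68 members was 0.119%.

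The comparison of late planula with mid-planula body asked how these genes changed as the larva matured. It was tested with edgeR's quasi-likelihood test over 21743 genes, in a fit of all 10 libraries as 4 groups of stage and tissue, with Benjamini-Hochberg adjustment. All 68 members passed the filter on low counts through their body libraries. With an adjusted p-value under 0.05, 13 members (19.1%) were higher in the late planula body, against a background of 1.98% of all genes tested. No member was lower, against a background of 0.671%, and none was lower at an unadjusted p-value under 0.05 (7.51% of all genes) or by DESeq2 (2.23% of all genes). The fitted log2 fold change, late minus mid, was above 0 for 66 of 68 members, with a median of 1.26 over the members and of -0.01 over all genes. At an unadjusted p-value under 0.05, 41 members were higher (9.91% of all genes), and DESeq2 called 31 (5.82% of all genes). The rule read the same body libraries, in that the lowest of them had to exceed the apical levels, so this comparison is not wholly separate from the choice of members.

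The levels showed the same order without a model. In 58 of 68 members (85.3%) every late planula body library was above both mid-planula body libraries, against a background of 18.4% of all genes tested. NVE17223 was the single member with every late planula body library lower (background 17.8%), and the 2 stages overlapped in the other 9. Without the TMM scaling, which moved the median late to mid difference of all genes from -0.01 to -0.34 on the log2 scale, 52 members were separated in this way, against 10.8% of all genes, and 63 members instead of 66 had a higher mean in the late planula body. The summed level was 2.49 times as high in the late planula body as in the mid-planula body, 2.21 times without NVE9071, and 1.96 times without the TMM scaling. In the late planula body, replicate 1 was the highest body library for 46 members, replicate 3 for 15 and replicate 2 for 5. The coefficient of variation over the 3 late planula body libraries ran from 1.87% to 70.1%, with a median of 24.99%.

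**Figure D3:**
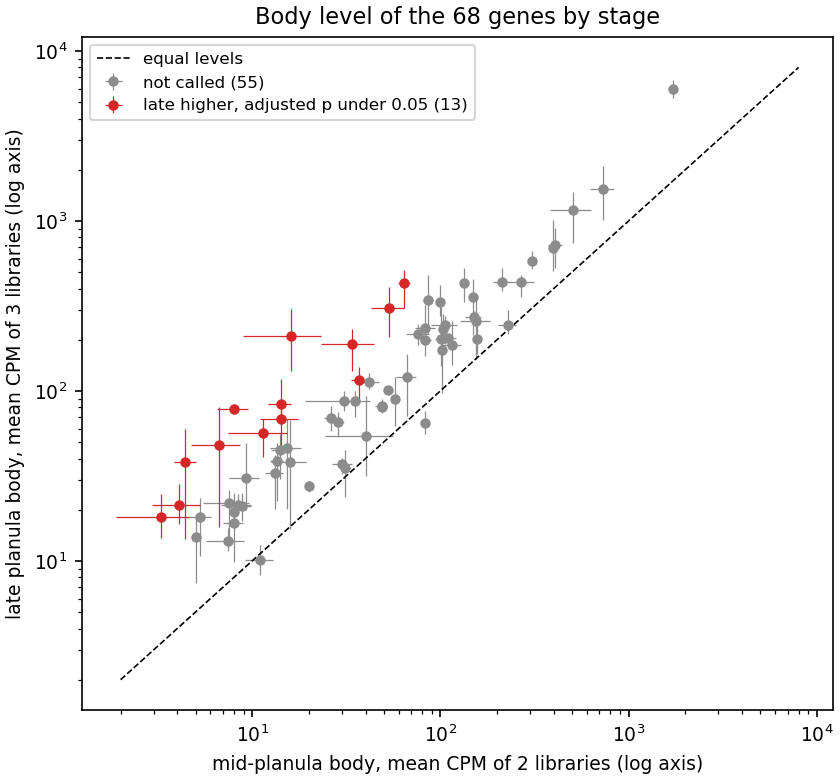
Mean level of each of the 68 genes in the late planula body (3 libraries) against the mid-planula body (2 libraries), both as TMM-normalised CPM on log axes. Bars span the lowest to the highest library, the dashed line marks equal levels, and the 13 genes called higher in the late planula by edgeR (red) had mid-planula means of 3.27 to 64.4 CPM.

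The 13 called members had adjusted p-values of 0.00575 to 0.0384, and their mean late planula body level was 3.12 to 13.1 times the mid-planula level. NVE20608 rose most, from 23.3 and 8.91 CPM in the mid-planula body to 304, 131 and 199 CPM in the late planula body, a log2 fold change of 3.71 (SE 0.53, edgeR adjusted p = 0.00705). NVE16 rose from 9.46 and 6.52 CPM to 73.6, 83.8 and 78.7 CPM, a log2 fold change of 3.30 (SE 0.41, edgeR adjusted p = 0.00575). The late planula libraries differed by more than 2-fold for NVE20608 and lay close together for NVE16. NVE21816 rose from 5.004 and 3.82 CPM to 59.4, 13.5 and 41.7 CPM, a log2 fold change of 3.11. NVE21954 rose from 4.75 and 8.64 CPM to 80.8, 15.9 and 46.8 CPM, a log2 fold change of 2.84 and the highest adjusted p of the 13 (edgeR, 0.0384). In both genes late planula replicate 2 was far below replicates 1 and 3 but above the mid-planula libraries.

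NVE4604 rose from 69.3 and 59.4 CPM to 466, 309 and 514 CPM (log2 fold change 2.74), and NVE21952 from 64.3 and 42.6 CPM to 406, 209 and 302 CPM (2.51). DESeq2 did not call NVE4604 (DESeq2 adjusted p = 0.0938). NVE18256 rose from 16.1 and 12.2 CPM to 117, 46.2 and 86.4 CPM (2.55). NVE21815 rose from 44.6 and 23.3 CPM to 231, 132 and 201 CPM (2.47), and NVE23425 from 4.64 and 1.89 CPM to 16.2, 13.6 and 24.6 CPM (2.47). The 4 other called genes, NVE11534, NVE193, NVE15 and NVE17896, had log2 fold changes of 2.37, 2.31, 2.27 and 1.64. In each of the 13 genes, the lowest late planula body library was above the highest mid-planula body library.

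**Figure D4:**
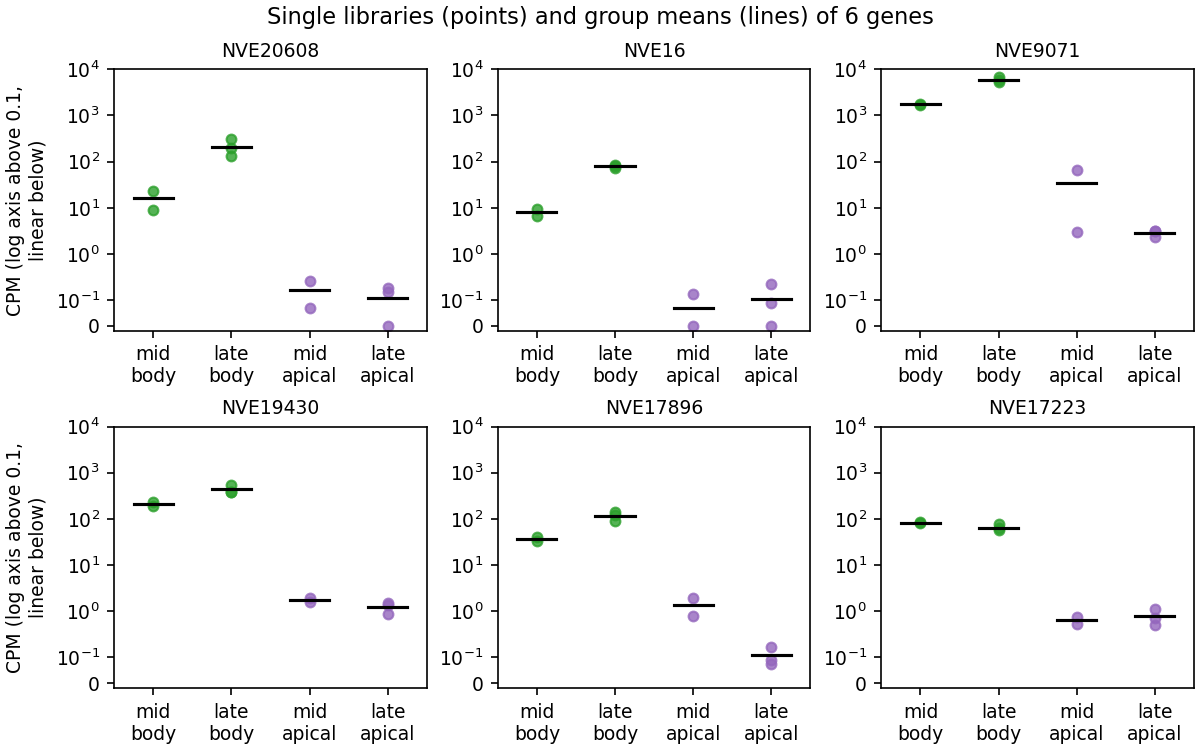
Levels of 6 of the genes in single libraries (points) and as group means (lines), as TMM-normalised CPM on an axis that is logarithmic above 0.1 CPM and linear below it. NVE20608 and NVE16 show the 2 highest log2 fold changes between the body stages (3.71 and 3.30), NVE9071 shows the spread of its mid-planula apical libraries (65.2 and 2.996 CPM), and NVE17223 is the gene whose late planula body libraries were all the lower.

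None of the 8 members with the highest mean body CPM was called in this fit, although in each of them every late planula body library was above both mid-planula ones. By DESeq2, NVE19430 of these 8 was called higher (DESeq2 adjusted p = 0.00432). NVE9071 had a log2 fold change of 1.79 (SE 0.77, edgeR adjusted p = 0.249). The fit used 1 estimate of the spread per gene over both tissues, and the mid-planula apical libraries of NVE9071 held 65.2 and 2.996 CPM. In a fit of the 5 body libraries alone, 21 members were called higher, against 1.93% of all genes, and 12 of the 13 genes above were among them. In that fit NVE9071 had a log2 fold change of 1.78 (SE 0.33, edgeR adjusted p = 0.0311), and it was the single gene of the 8 that was called.

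The count of 13 depended on single libraries. It was 0 without mid-planula body replicate 2, where 29 members had an unadjusted p-value under 0.05 and no gene of the whole table was called by edgeR. It was 2 without mid-planula body replicate 1 and 2 without late planula body replicate 3. It was 22 without late planula apical replicate 2. Without late planula body replicate 1 it was 11, and without late planula body replicate 2 it was 13. In these 2 fits 558 and 384 genes of the whole table were called. Leaving out a mid-planula library left 1 library in its group, so counts from those fits are a description only. With all libraries edgeR called 576 genes of the whole table in either direction, and without late planula body replicate 3 it called 75. There the calls fell over all genes, not only over the members. DESeq2 was not run on these subsets.

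At the other end, 8 members had a log2 fold change within 0.5 of 0 and 2 were below 0. NVE17223 had 80.0 and 85.3 CPM in the mid-planula body and 75.8, 62.9 and 56.1 CPM in the late planula body, a log2 fold change of -0.35 (SE 0.26, edgeR adjusted p = 0.549). NVE5841 had 12.9 and 9.18 CPM in the mid-planula body and 8.24, 12.4 and 9.89 CPM in the late planula body, so its stages overlapped. NVE13303, which kept the largest share in late planula apical tissue, had 26.5 and 33.8 CPM in the mid-planula body and 32.3, 40.1 and 38.7 CPM in the late planula body.

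The shift with stage was set beside that of genes with a smaller tissue difference, among genes with a mean body level of at least 10 CPM. These bands of the tissue ratio, the lowest body library over the highest apical library, were drawn after the data had been seen and are a description. Where the tissues overlapped (ratio under 1), 8350 genes showed a log2 fold change with a median of -0.05 between the body stages, and 2.93% were called higher and 1.45% lower. At a ratio of 1 to 4, 448 genes had a median of 0.17, and 26 (5.80%) were called higher. At a ratio of 4 to 16, 92 genes had a median of 0.90, and 11 (11.96%) were called higher. The 68 members had a median of 1.26, with 13 (19.1%) called higher. No gene of the 3 bands above 1 was called lower in the late planula body by edgeR.

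**Figure D5:**
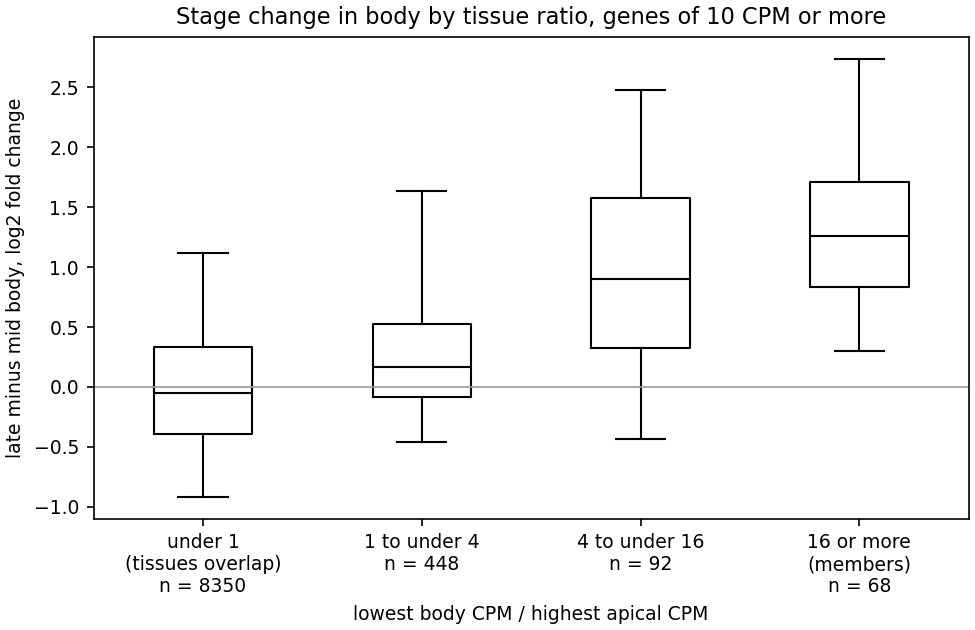
Log2 fold change between late planula and mid-planula body by the ratio of the lowest body library to the highest apical library, for genes with a mean body level of at least 10 CPM. Boxes span the quartiles with the median as a line, whiskers run from the 5th to the 95th percentile of genes, and the medians are -0.05, 0.17, 0.90 and 1.26 from left to right.

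In the apical tissue the members were compared between the stages with the same fit. The rule had read these apical values, most of them near the floor, and the members passed the filter on low counts through their body libraries, so the shares below are a description and nothing is drawn from them. In a fit of the apical libraries alone, 24 members passed the filter and edgeR called none of them, with 7 at an unadjusted p-value under 0.05. Of the 68 members, 4 (5.88%) were lower in late planula than in mid-planula apical tissue, against a background of 0.924% of all genes tested, and none was higher, against 1.18%. At an unadjusted p-value under 0.05, 37 members were lower (7.11% of all genes) and none was higher (9.18% of all genes), and DESeq2 called 14 lower (2.51% of all genes) and none higher (4.15% of all genes). NVE17896 had 57 and 12 counts in the mid-planula apical libraries (1.98 and 0.782 CPM). In the late planula ones it had 3, 2 and 1 counts (edgeR adjusted p = 0.0109). Its mid-planula mean was 7.91 times a late planula floor of 3 counts per library. NVE21815 had 41 and 6 counts, then 2, 0 and 1 counts (edgeR adjusted p = 0.0337), with a mid-planula mean of 5.2 times that floor. NVE15608 had 76 and 6 counts, then 4, 2 and 0 counts (edgeR adjusted p = 0.0307). NVE9071 had 65.2 and 2.996 CPM, then 3.08, 2.35 and 3.12 CPM (edgeR adjusted p = 0.0366). Its mid-planula replicate 2 was within the range of the late planula libraries.

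None of these 4 calls was made without mid-planula apical replicate 1. This left 1 mid-planula apical library, so the loss of the calls itself says little about single members. The fitted log2 change, late minus mid, was then -0.08 for NVE9071, against -3.59 with all libraries. It was -1.76 against -3.80 for NVE15608, -2.67 against -3.98 for NVE21815 and -2.74 against -3.63 for NVE17896. DESeq2 was not run on this subset. Leaving out mid-planula apical replicate 2 also left 1 mid-planula apical library. The log2 changes were then -4.52 for NVE9071, -4.50 for NVE15608, -4.53 for NVE21815 and -4.08 for NVE17896. The count of 4 became 1 without late planula apical replicate 2 or 3. It was 1 without late planula body replicate 3 (199 over all genes) and 2 without late planula apical replicate 1 (362 over all genes). With all libraries 457 genes were called. Mid-planula apical replicate 2 was above each late planula apical library for 13 members and below each for 16. Both mid-planula apical libraries were above the 3 late planula ones for 12 members.

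Whether the change with stage itself differed between body and apical tissue was tested as an interaction in the same fit. The rule had read all of these libraries and the members passed the filter through the body, so these shares too are a description only. The interaction passed for 2 members (2.94%), against a background of 0.023% of all genes tested (5 genes), and in both the change from mid-planula to late planula was the more positive in the body. NVE17896 had an edgeR adjusted p of 0.0145 and NVE21815 one of 0.0434. In the fits above, both were called higher in the late planula body. Their calls in the apical tissue, lower in the late planula, are a description only. No member passed in the other direction in edgeR, also at an unadjusted p-value under 0.05 (1.32% of all genes), or in DESeq2 (0.0573% of all genes). In the first direction, 51 members had an unadjusted p-value under 0.05 (2.7% of all genes), and DESeq2 called 18 (0.458% of all genes). The late planula apical counts behind both calls were 3 or fewer, as given above. The edgeR count was 0 without mid-planula apical replicate 1, where 18 members had an unadjusted p-value under 0.05. It was also 0 without either mid-planula body library, late planula body replicate 3 or late planula apical replicate 3, with 48 to 50 members under the unadjusted 0.05, and in each of these 5 fits no gene of the whole table was called. It was 1 without late planula body replicate 1 or late planula apical replicate 1, with 5 genes of the whole table called in each fit. Without late planula apical replicate 2 it was also 1. Leaving out mid-planula apical replicate 2 left 1 library in that group. The log2 differences in stage change were then 5.72 for NVE17896 and 6.99 for NVE21815, against 5.27 and 6.45 with all libraries.

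Several members carry identifiers that lie side by side. Identifiers no more than 2 apart formed 8 runs that held 17 members. The runs were NVE15 and NVE16, NVE5854 with NVE5855 and NVE5857, NVE9070 and NVE9071, NVE9235 and NVE9236, NVE19430 and NVE19431, NVE21815 and NVE21816, NVE21952 and NVE21954, and NVE24828 and NVE24829. The identifier of NVE9234, a gland/secretory-cell type 4 marker left out by name, lies next to that of NVE9235. Whether close identifiers are neighbours on a chromosome was not examined here. Both members were called higher in the late planula body in the runs of NVE15 and NVE16, of NVE21815 and NVE21816 and of NVE21952 and NVE21954. In the run of NVE9070, the gene had 96.2 and 102 CPM in the mid-planula body and 418, 274 and 310 CPM in the late planula body, a log2 fold change of 1.75 beside the 1.79 of NVE9071. If members of a run are near-identical copies, the counting could have divided their reads, and their separate values are uncertain.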

How the data were processed

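RNA was sequenced from both ends in 10 libraries, 2 apical and 2 body libraries of mid-planulae and 3 of each tissue of late planulae, grouped by the sample labels. The authors trimmed and mapped the reads and deposited whole-number counts per gene model, without normalisation. Their processing notes list Trimmomatic 0.36, Bowtie2, STAR, HTSeq 0.6, limma and DESeq2, and the strand setting is not given in the sources used here, so overlapping, antisense and near-identical gene models are uncertain. Among counts of 1 to 20, 70.3% to 83.9% per library were even. Whether both mates of a pair were counted is not given in the sources used here, and if they were, counting errors are understated.

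Levels are TMM CPM (edgeR 4.0.16, limma 3.58.1, R 4.3.3), with factors from genes with at least 15 counts in total. Stage contrasts came from edgeR's quasi-likelihood test on the 10 libraries as 4 groups after filterByExpr (minimum count 10), with Benjamini-Hochberg adjustment over all genes tested and a threshold of 0.05. The SE is the log2 fold change divided by the square root of the F statistic. The scripts were tested on simulated data. No 2 libraries of a group agreed within sampling noise.

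The members and lists were chosen with earlier results of these data known. Named were the 8 members with the highest mean body CPM, the 6 with the highest ratio between the tissues, the 4 with the highest single apical CPM, the 8 highest and 8 lowest log2 fold changes among members called between the body stages, the 3 nearest to each threshold on either side, and members called in the other stage tests. The alternatives were DESeq2 1.42.0, other normalisations and filters, halved counts, 1 tissue alone, the replicate number as a block, other fold thresholds and leaving out each library. Choosing the members without mid-planula apical replicate 1 and the alternatives for the separation of the stages were added after seeing the data. The reference table used here (RefSeq) matched none of the NVE identifiers.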

Additional observations from a re-analysis of the deposited data

Results flagged for a closer look

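In 17 of the sets of 5 apical libraries examined, mid-planula apical replicate 1 lay apart from the other 4 by Dixon's criterion (a gap of over 0.71 of the whole range). These sets hold both stages, and 53 sets were examined over both tissues. Some of the genes had been picked for their high single apical CPM, and all sets share the same libraries. No chance rate therefore applies to the number of sets. The summed level of the 68 genes was 202 CPM there and at most 32.5 CPM in the other apical libraries. NVE9071 was at 65.2 CPM, NVE16548 at 13.3 CPM, NVE5857 at 12.6 CPM, NVE1151 at 10.7 CPM, NVE16591 at 5.90 CPM, NVE7504 at 4.79 CPM, NVE5855 at 4.13 CPM and NVE15608 at 2.64 CPM. Lower levels were those of NVE21815 (1.42 CPM), NVE21952 (1.15 CPM), NVE4604 (0.764 CPM), NVE14456 (0.764 CPM), NVE18256 (0.660 CPM), NVE5841 (0.347 CPM), NVE23587 (0.139 CPM) and NVE10842 (0.139 CPM). In the body, NVE16289 was at 1017 CPM in late planula body replicate 1, and the next highest body library was at 554 CPM. The interaction passed for NVE17896 (edgeR adjusted p = 0.0145) and NVE21815 (edgeR adjusted p = 0.0434). This is a description only, since the rule had read these libraries and the late planula apical counts were 3 or fewer. Both calls depended on single libraries, as given above. Without mid-planula apical replicate 1, the log2 differences in stage change were 4.39 and 5.14, against 5.27 and 6.45 with all libraries.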

How the results depend on the processing

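The number of members called between the body stages (13) was 31 with DESeq2, 24 with halved counts and 21 with the body libraries alone, and 0 to 22 when 1 library was left out. The number called between the apical stages (4) was 14 with DESeq2, 8 without the filter on low counts, 0 with the apical libraries alone (where 24 members passed the filter and 7 had an unadjusted p-value under 0.05) and 0 to 21 when 1 library was left out. The number called in the interaction (2) was 18 with DESeq2, 1 with halved counts and 0 to 25 when 1 library was left out. DESeq2's size factors and upper-quartile scaling in edgeR kept the 3 counts at 13, 4 and 2. Over all genes, in either direction, the 3 main counts were 576, 457 and 5. For the body stages the count over all genes was 1724 with DESeq2, 774 with halved counts and 504 with the body libraries alone. For the apical stages it was 1459 with DESeq2, 593 without the filter and 227 with the apical libraries alone. For the interaction it was 108 with DESeq2 and 4 with halved counts. With the replicate number as a block shared by the stages, the counts between the body stages and between the apical stages were 3 and 0 (28 members under an unadjusted 0.05). Over all genes they were 63 and 0, in either direction. With a block for each number within a stage, the interaction count was 7, against 35 over all genes. The sources used here do not state whether libraries of the same number are pairs, and they were not treated as pairs. Apical and body libraries of the same number deviated from their group means with correlations of 0.154 (mid-planula), 0.232, 0.488 and -0.0926 (late planula). With 2 mid-planula libraries per tissue, both numbers give the same value. These correlations cannot exclude pairing. Between the stages, libraries of the same number gave -0.339 and -0.338 in the body and -0.0962 and -0.249 in apical tissue. The rule gave 108 genes at 8 times, 38 at 32 times and 66 to 104 when 1 library was left out, the highest without mid-planula apical replicate 1. Chosen in that way, the 104 genes included all 68 members and thus their 13 calls. In the same fit, 14 of the 104 (13.5%) were called higher in the late planula body, with a median log2 fold change of 1.20. Without TMM the summed level was 9009 CPM in the mid-planula body and 27.2 CPM in late planula apical tissue. Directions were followed gene by gene in the alternatives for 12 of the named genes. They were the 8 highest log2 fold changes among members called between the body stages and the genes of the other stage tests. NVE11534, NVE193 and NVE15 were called but not followed. None of the 12 genes reversed in sign, but a kept sign is not always a kept change. The apical log2 change of NVE9071 ran from -4.52 to -0.08, where almost no change was left. In the fit of the apical libraries alone, NVE15608 and NVE21815 did not pass the filter and could not be followed. The causes of these shifts were not tested. A group left with 1 library was assumed to vary like the others. Counts of 3 or fewer in an apical library limit what can be said of single genes there.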
